A study of Mus musculus with 40 samples.

Results

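The acute phase and complement genes Saa1, Saa2, Saa3, Lcn2, Hp, C3, C4b and Cfb were followed in mouse embryonic fibroblasts (MEFs) that carried or lacked Sall2, with and without doxorubicin. They were taken by symbol and are 8 of the 24062 genes in the count table. The MEFs came from 13.5 dpc embryos of a mixed C57BL/6J and 129P2OlaHsd background and were used at passage 3. Sall2 encodes a zinc finger transcription factor, and its knockout allele was made in E14.1 embryonic stem cells of the 129P2 strain, so that knockout cultures also carry 129P2 sequence around Sall2 on chromosome 14. The groups were 1 wild-type (WT) embryo, 1 heterozygous (Het) embryo and 3 knockout (KO) embryos, here KO 1, KO 2 and KO 3. Cultures were left untreated (control) or received 1 µM doxorubicin, a topoisomerase II poison that breaks DNA, for 16 h. The table listed 10 libraries, but the doxorubicin columns of KO 2 and KO 3 were identical in 24062 of 24062 genes and were counted as 1 library. That library had 0 counts on Y-linked genes, as against 6397 in the KO 3 control and 1 in the KO 2 control, and was set beside KO 2. This left 5 control libraries and 4 doxorubicin libraries. Each embryo gave 1 culture per condition, so WT and Het had no replicate. In the tests of KO against WT and of the interaction, p-values measured the spread between libraries of the KO group. In the treatment test with genotype as a term, they also measured how the response differed between genotypes. That test took libraries of the same embryo as independent. With a term for each embryo (the block below), p-values measured how the response differed between embryos.

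The acute phase response is the rapid change in secreted proteins that follows infection or injury. Interleukin 6, interleukin 1 and tumour necrosis factor drive it through STAT3, NF-kB and C/EBP factors, mostly in hepatocytes, but fibroblasts and macrophages also make some of these proteins. Serum amyloid A proteins (Saa1, Saa2, Saa3) are lipid-carrying proteins, and Saa3 is the member that mouse cells outside the liver make. Lipocalin 2 (Lcn2) binds bacterial siderophores and keeps iron from microbes, and haptoglobin (Hp) binds free haemoglobin. C3 is the protein on which the complement pathways meet. Cfb is the protease subunit of the alternative pathway C3 convertase, and C4b supplies a subunit, not the protease, of the classical and lectin pathway convertase.

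In GRCm38, the build on which the reads were aligned, Saa3 (chr7:46711998-46715700, minus strand), Saa1 (chr7:46740497-46742980, minus strand) and Saa2 (chr7:46751790-46754313, plus strand) lie in 1 cluster, with 24.8 kb between Saa3 and Saa1 and 8.81 kb between Saa1 and Saa2. Lcn2 lies at chr2:32384633-32388252 and Hp at chr8:109575128-109579172. C4b (chr17:34728380-34743882) and Cfb (chr17:34856374-34862518) are 112 kb apart, and C3 lies on the same chromosome at chr17:57203970-57228136. These 5 genes are on the minus strand. All 8 are protein-coding in GENCODE vM21. Reads of 150 bases cannot always be given to 1 gene: 7.48% of the 150-base windows along C4b transcripts also occur in C4a, 2.11% of those of Saa1 occur in Saa2, and 61.8% of those of Cfb occur in Gm20547, a transcript that spans C2 and Cfb and has no row in the count table. No window of Saa3, Lcn2, Hp or C3 was shared with another gene.

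RefSeq promoters (GRCm38.p6, 250 bases before to 50 after the start) were given for 5 of the 8 members, all but Hp, C4b and Cfb. The windows of 4 are printed because they show the silent Saa1 beside the 3 genes with the widest range of counts. Capitals mark each match, on either strand, to TTNNGNAA, a pattern for C/EBP factors. The windows are chr7:46742931-46743230, chr7:46715627-46715926, chr2:32387690-32387989 and chr17:57228087-57228386, all minus strand and read 5′ to 3′ along the gene.
Saa1: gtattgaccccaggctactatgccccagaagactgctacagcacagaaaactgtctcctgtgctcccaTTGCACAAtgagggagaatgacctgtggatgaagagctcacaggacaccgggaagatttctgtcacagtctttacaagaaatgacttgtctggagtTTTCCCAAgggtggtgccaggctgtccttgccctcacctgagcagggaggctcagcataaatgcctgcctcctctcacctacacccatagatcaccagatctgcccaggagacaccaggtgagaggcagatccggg
Saa3: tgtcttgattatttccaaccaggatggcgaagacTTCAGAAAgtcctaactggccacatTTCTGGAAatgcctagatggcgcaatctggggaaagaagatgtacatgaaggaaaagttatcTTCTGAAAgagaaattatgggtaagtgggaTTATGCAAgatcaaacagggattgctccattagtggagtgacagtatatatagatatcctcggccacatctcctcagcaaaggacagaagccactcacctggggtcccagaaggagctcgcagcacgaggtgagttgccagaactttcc
Lcn2: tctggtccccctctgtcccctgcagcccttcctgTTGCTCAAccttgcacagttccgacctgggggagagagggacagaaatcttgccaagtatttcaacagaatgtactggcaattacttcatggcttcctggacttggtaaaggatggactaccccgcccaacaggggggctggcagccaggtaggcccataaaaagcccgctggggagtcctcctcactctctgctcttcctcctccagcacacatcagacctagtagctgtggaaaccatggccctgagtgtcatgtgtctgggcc
C3: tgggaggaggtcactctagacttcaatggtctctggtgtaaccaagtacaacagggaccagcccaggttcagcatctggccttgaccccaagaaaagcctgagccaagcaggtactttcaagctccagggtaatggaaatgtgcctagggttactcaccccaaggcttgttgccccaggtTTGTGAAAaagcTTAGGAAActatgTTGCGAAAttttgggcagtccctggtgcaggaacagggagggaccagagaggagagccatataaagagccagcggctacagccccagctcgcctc
Saa3 held 4 matches, from 216 to 92 bases before its start, and C3 held 3 matches between 70 and 38 bases before its start. Saa1 held 2 matches, and Saa2 and Lcn2 held 1 each. The pattern is short and common: 40.7% of 32851 mouse promoters of this length held at least 1 match. Saa3 also held GAAANNGAAA, a pattern for interferon regulatory factors, 125 to 116 bases before its start and overlapping the C/EBP pattern match that begins 129 bases before it, whereas 3.44% of promoters held that pattern on either strand. A 10-base NF-kB pattern, present in 4.51% of promoters, and TTCNNNGAA, a STAT pattern present in 8.3%, matched in none of the 5 windows. A match describes letters, and binding was not measured.

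Library totals ran from 15560728 to 24122414 counts. Values are CPM, counts relative to the library total after edgeR's TMM scaling, so that 3 counts correspond to 0.123 to 0.167 CPM. Sall2, the targeted gene, stood at 37.4 CPM in the WT control, 24.0 in Het, and 19.8, 24.1 and 18.9 in KO 1, KO 2 and KO 3, so that its summed count separated WT from the other cultures but not Het from KO. Which exons those reads covered was not analysed here. The untreated Het and KO 3 libraries stood apart from the other 3 control libraries: the summed CPM of 11 fibroblast markers (collagens, Vim, Thy1 and others) was 11599 and 10464 in them, against 43348 to 51099 in WT, KO 1 and KO 2. The Het doxorubicin library had 13122, against 32347 to 37457 in the other 3 treated libraries. Col1a1 and Col1a2 made up most of these sums. Of the 11 markers, 8 were lower in untreated Het and KO 3 than in each other untreated culture, where 36% of genes past the filter on low counts were. Fap alone was higher, at 23.5 and 28.8 CPM against 16.3 to 21.7, where 38.1% of genes were. Each result below is therefore given by culture.

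Saa3 and Lcn2 were at or near 0 in 3 of the 5 untreated cultures and abundant in the other 2. Saa3 had 5 counts in WT, 6 in KO 1 and 0 in KO 2, but 2416 in Het and 5012 in KO 3. In CPM these were 0.247, 0.306, 0, 98.7 and 223.7. Saa3 was thus 399-fold higher in Het than in WT (exact 95% counting interval 171 to 1231) and 905-fold higher in KO 3 (388 to 2789), whereas KO 1 differed from WT by 1.24-fold with an interval from 0.315 to 5.13. Lcn2 had 0 counts in WT, 1 in KO 1 and 0 in KO 2, as against 448 in Het and 127 in KO 3. With the WT count set to a floor of 3, Lcn2 was 123-fold higher in Het and 38.2-fold higher in KO 3 than in WT. The exact 95% counting intervals began at 99.99 and 30.6. Intervals cover counting error only, and the floor stands in for the count of 0 alone. With 1 untreated library per culture no test of a culture was made. Saa1 and Saa2 stayed at 0 or 1 count in every untreated library, also in KO 3, where their neighbour Saa3 had 5012.

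**Figure D1:**
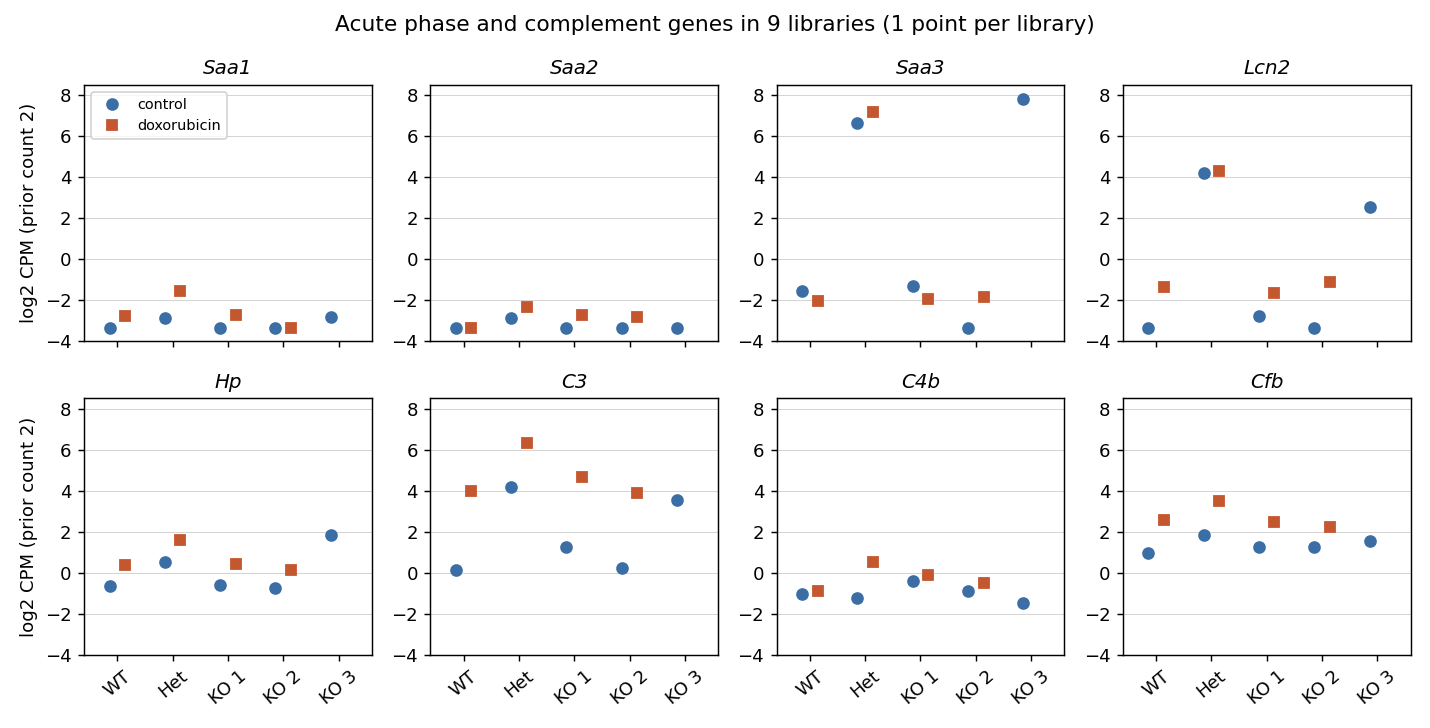
Each panel plots 1 gene, with the 5 cultures on the x axis and log2 CPM (prior count 2) on the y axis; circles are control libraries, squares are doxorubicin libraries, and KO 3 has no distinct treated library. Saa3 and Lcn2 are high in Het and in the KO 3 control alone. The square lies above the circle in every culture with both libraries for C3, Cfb and Hp, and also for Lcn2 and C4b, there mostly from small counts.

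The same cultures led for C3 and Hp, by less. C3 had 20 counts in WT, 44 in KO 1 and 19 in KO 2, against 434 in Het and 262 in KO 3. This was 17.9-fold (11.5 to 29.7) above WT in Het and 11.8-fold (7.505 to 19.7) in KO 3, and KO 1 was also above WT by counting error, at 2.27-fold (1.31 to 4.07). Hp had 11, 33, 11, 9 and 79 counts in WT, Het, KO 1, KO 2 and KO 3. Its order therefore differed from that of C3 and Lcn2: KO 3 was highest, 6.49-fold above WT (3.44 to 13.5), and Het was 2.48-fold above WT (1.22 to 5.44). Cfb varied least among these genes, with 38, 84, 44, 41 and 64 counts, that is 1.83-fold (1.23 to 2.76) in Het and 1.52-fold (1.00 to 2.34) in KO 3 relative to WT. C4b went the other way, at 8, 8, 13, 8 and 6 counts, and its intervals against WT included 1 in every culture.

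**Figure D2:**
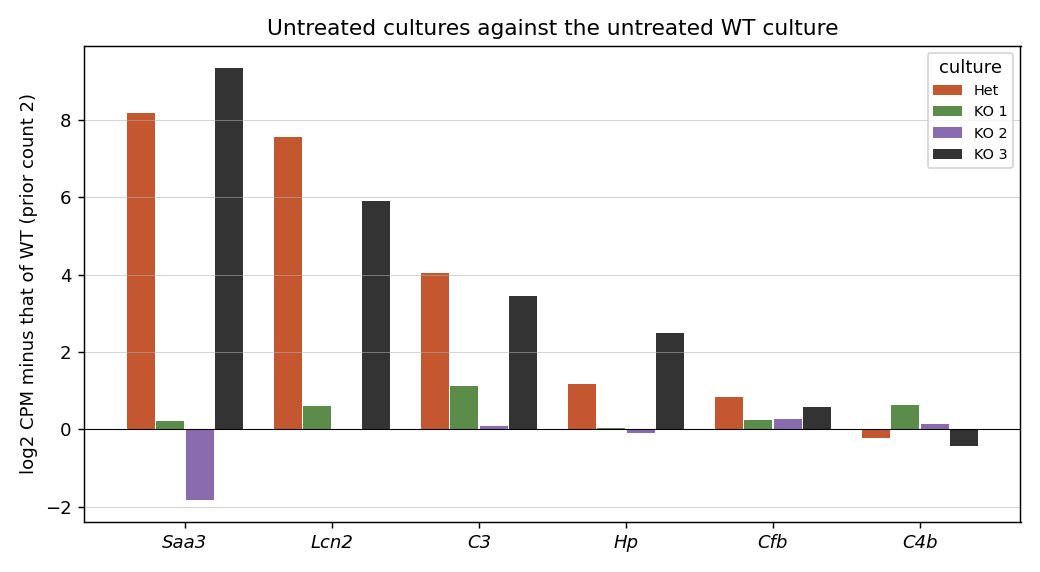
Bars give the difference in log2 CPM (prior count 2) between each untreated culture and the untreated WT culture, for the 6 members that passed the filter on low counts; there is 1 library per bar and no error bar. Het and KO 3 bars reach 8.16 and 9.34 for Saa3 and 7.56 and 5.89 for Lcn2, and they fall below 0 for C4b.

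Of the 8 members, 4 (Saa3, Lcn2, C3 and Hp) were more than 1 log2 unit above WT in untreated Het, where 21.8% of 15857 genes past the filter were, and the same 4 were in KO 3, where 20.4% were. In KO 1 it was C3 alone, at 1.11 (background 3.98%), and in KO 2 no member was (background 2.14%), while Saa3 alone was more than 1 unit below WT, at -1.82 from 5 counts against 0 (background 2.38%). Of the 6 members past the filter, 5, all but C4b, were higher in both Het and KO 3 than in each of WT, KO 1 and KO 2. Among all genes past the filter 38.1% shared this pattern. Saa1, which did not pass, had 1 count in Het and in KO 3 and 0 in the others. Saa3 and Lcn2 passed that filter through the libraries in which they were high.

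Genes that induce the members were also read in the untreated cultures. Of 25 cytokine and signalling genes past the filter, 11 were higher and 13 lower in Het and KO 3 than in the other 3 untreated cultures, where 38.1% of all genes past the filter were higher and 36% lower. Il6 had 46, 43 and 34 counts in WT, KO 1 and KO 2 and 1224 and 2063 in Het and KO 3. Il1b had 1, 1 and 0 counts, against 883 and 480, and Tnf had 3, 8 and 2, against 491 and 268. These 3 cytokines were picked after their values were seen. Receptor and signalling genes were among the 13 that were lower: Il6st, the shared subunit of interleukin 6 family receptors, was at 95.9 CPM in Het and 111 in KO 3 against 542 to 549 in the others, and Stat3 was at 122 and 121 against 240 to 253. Among 17 interferon-stimulated genes, 17 were higher in Het and KO 3, and their summed CPM was 2845 and 3120 against 128 to 148.

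Markers of other cell types were read in the same libraries. Of 16 macrophage markers, 12 were higher in Het and KO 3 than in the other untreated cultures, and their summed CPM was 943 and 621 against 162 to 301. Lyz2, the lysozyme of macrophages, was at 335 and 287 CPM against 51.4 to 94.5, whereas the mannose receptor Mrc1 was lower there, at 0.286 and 0.268 against 4.24 or more in the others. All 5 neutrophil markers past the filter were higher in Het and KO 3. Most of these passed it through the libraries in which they were high, so this count was largely set by the filter. Among all genes past the filter, 38.1% were higher in both cultures than in the other untreated ones. Summed over 11 neutrophil markers, CPM was 7.97 and 10.1 in Het and KO 3 against 0.408 to 0.692. S100a9 had 0 or 1 count in every library and Retnlg 0. Hepatocyte markers summed to 2.37 and 1.92 CPM in Het and KO 3 and 0.868 to 1.88 in the others, with Alb at 0 counts in all 5 control libraries and Serpina1a and Apoa2 at 0 counts in all 9. These sums hold members that went opposite ways: Afp had 44 and 33 counts in Het and KO 3 against 0, 3 and 2 in WT, KO 1 and KO 2, and Apob had 6 and 6 against 35, 12 and 27. The part of macrophages or of other cells in the levels of Saa3, Lcn2, C3 and Hp was not tested, and in these bulk libraries more cells of a type and more RNA per cell cannot be told apart.

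**Figure D3:**
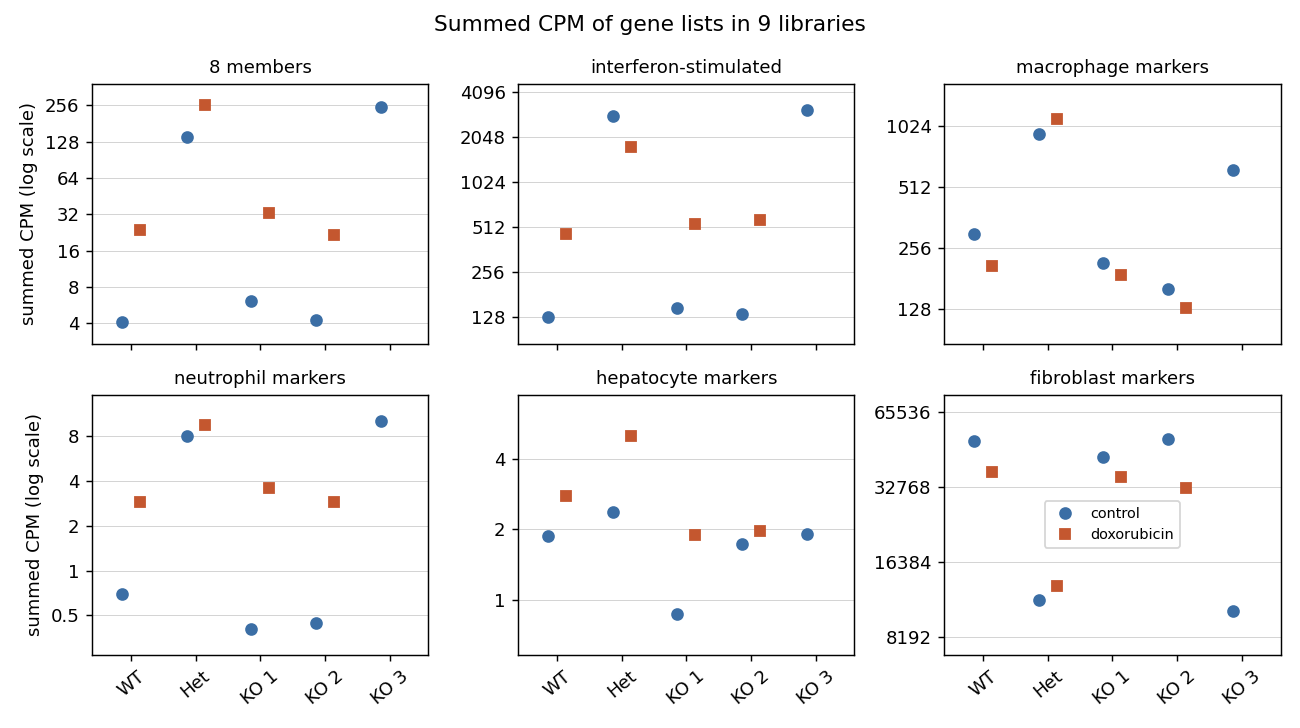
Summed CPM on a log axis, 1 panel per gene list and 1 point per library, with circles for control and squares for doxorubicin. The sums of the 8 members, the interferon-stimulated genes and the macrophage and neutrophil markers are high in Het and in the KO 3 control. The sum of the fibroblast markers is low there, at 11599 and 10464 against 43348 or more in controls. Saa3 makes up most of the members' sum in these libraries, with 98.7 of 140 CPM in the Het control and 223.7 of 248 in the KO 3 control.

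With doxorubicin, C3, Cfb and Hp had higher levels in every culture that had both libraries, and Saa3 and Lcn2 stayed high in the Het culture. Lcn2 and C4b were also higher in each culture with both libraries, but from small counts or with intervals that included 1. The share of all genes that were higher in every such culture was not computed. C3 went from 20 to 314 counts in WT, from 434 to 1632 in Het, from 44 to 450 in KO 1 and from 19 to 318 in KO 2. Relative to the library sizes this was 15.8-fold in WT (exact 95% counting interval 10.1 to 26.3), 11.2-fold in KO 1 (8.19 to 15.6) and 13.8-fold in KO 2 (8.69 to 23.2). The Het ratio was smaller, 4.57-fold (4.11 to 5.09), from a control level that was already higher than those of WT, KO 1 and KO 2, and its interval did not meet those of the other 3 cultures. Even so, the Het doxorubicin library held the highest C3 level of all, 81.0 CPM, against 14.6 to 25.1 in the other 3 treated libraries.

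Cfb, which acts together with C3 in the alternative pathway, went from 38 to 119 counts in WT, from 84 to 224 in Het, from 44 to 97 in KO 1 and from 41 to 101 in KO 2. The ratios were 3.16 (2.18 to 4.68), 3.24 (2.51 to 4.21), 2.41 (1.67 to 3.52) and 2.03 (1.40 to 2.996). The 4 treated libraries, at 4.64 to 11.1 CPM, did not overlap the 5 control libraries, at 1.88 to 3.43 CPM. Cfb was the single member of which this held, and 24.6% of genes past the filter were likewise higher without overlap. Hp went from 11 to 24 counts in WT, from 33 to 59 in Het, from 11 to 22 in KO 1 and from 9 to 22 in KO 2, with ratios of 2.20, 2.17, 2.19 and 2.02. The KO 2 interval for Hp, 0.892 to 4.97, included 1.

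**Figure D4:**
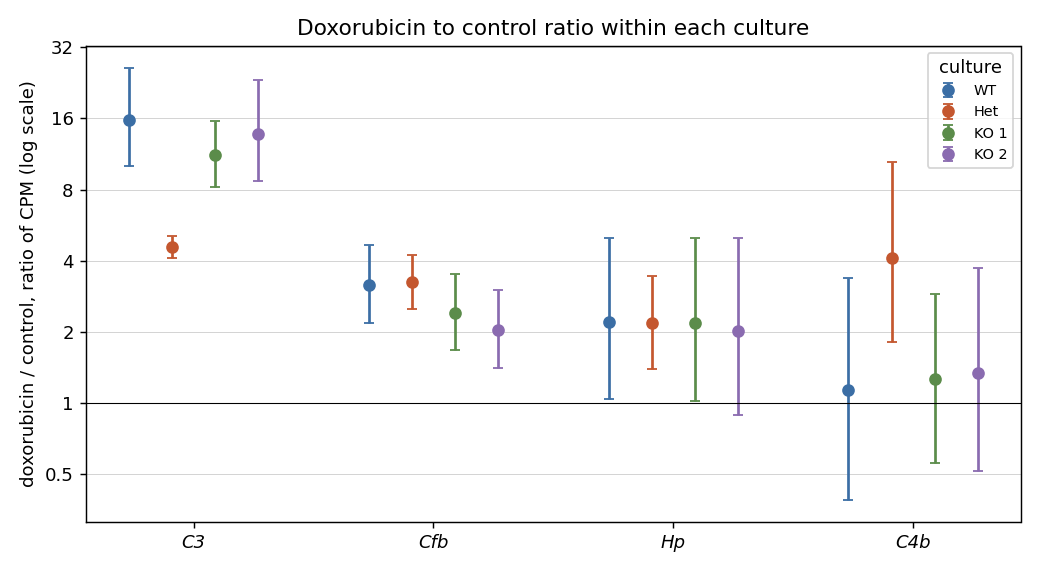
Ratio of CPM with doxorubicin to CPM without it in the same culture, on a log axis, for 4 members and 4 cultures; points are single ratios and bars are exact 95% intervals for counting error only. C3 lies between 4.57 and 15.8, Cfb between 2.03 and 3.24 and Hp between 2.02 and 2.20, while for C4b the Het interval alone lies above 1.

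The remaining members had small counts or small ratios in most cultures. Saa3 went from 2416 to 2872 counts in Het, a ratio of 1.44 (1.37 to 1.53), and stayed at 3, 3 and 4 counts in treated WT, KO 1 and KO 2. Lcn2 went from 448 to 397 counts in Het, a ratio of 1.08 (0.938 to 1.24). In the other cultures Lcn2 went from 0 to 6 counts in WT, from 1 to 4 in KO 1 and from 0 to 8 in KO 2, that is at least 2.02-fold higher in WT and at least 2.20-fold in KO 2 at the floor of 3 counts. C4b went from 8 to 27 counts in Het, a ratio of 4.10 (1.81 to 10.4), and its ratios in WT, KO 1 and KO 2 were 1.13, 1.26 and 1.34 with intervals that included 1. Treated libraries had 0 to 5 counts of Saa1 and 0 to 2 of Saa2.

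Across all 9 libraries, with genotype and treatment in the model, 6 of the 8 members passed the filter on low counts, and 1, Cfb, was higher with doxorubicin at an adjusted p under 0.01 by edgeR's quasi-likelihood test, where 21.7% of 15857 genes were higher and 19.1% lower. The Cfb log2 fold change was 1.32 with an SE of 0.240 and an adjusted p of 0.00179. C3 had the largest estimate, 2.42 with an SE of 0.674, and an adjusted p of 0.0147. Hp was at 0.26 (SE 0.680, adjusted p = 0.763), C4b at 0.86 (SE 0.457, adjusted p = 0.141), Lcn2 at -1.03 (SE 1.53, adjusted p = 0.595) and Saa3 at -5.24 (SE 3.71, adjusted p = 0.262). The negative estimates of Saa3 and Lcn2 come with a control group that holds KO 3 and a treated group that does not.

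Each treated library shares its embryo with a control library, and with the embryo as a block, which leaves the KO 3 control without a partner, 3 members passed: C3 at 3.22 (SE 0.304, adjusted p = 5.35e-05), Cfb at 1.41 (SE 0.206, adjusted p = 0.000479) and Hp at 1.09 (SE 0.278, adjusted p = 0.00828). In that model 58.4% of 15694 genes were called, 30.5% higher and 27.8% lower. Saa3 and Lcn2 then had positive estimates of 0.38 and 0.92 with adjusted p of 0.331 and 0.208, and C4b was at 0.77 with an adjusted p of 0.146. Without the KO 3 control and without the block, C3, Cfb and Hp passed as well. Without either WT library Cfb missed the threshold, with adjusted p of 0.0127 without the control and 0.0139 without the treated library.

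**Figure D5:**
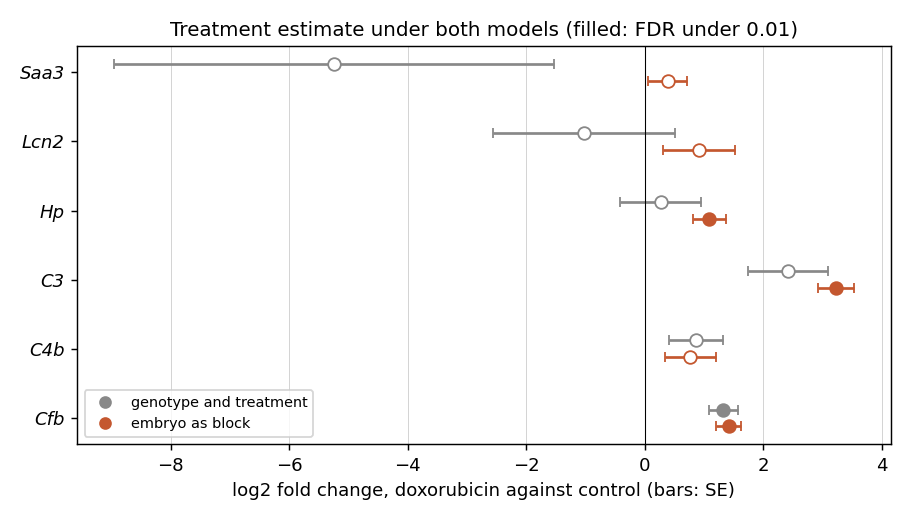
Log2 fold change of doxorubicin against control with its SE for 6 members, in grey with genotype and treatment in the model and in orange with the embryo as a block; filled points passed an adjusted p of 0.01. The estimates of Saa3 and Lcn2 change sign between the models, C3 moves from 2.42 to 3.22, and Cfb is filled in both.

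The share of other complement genes that passed was below that of all genes tested. Of 37 further complement genes in the table, 27 passed the filter, 4 were higher with doxorubicin and 0 lower, with a median log2 fold change of 0.18 against -0.01 over all genes tested, of which 21.7% were higher. With the embryo as a block 7 were higher and 1 lower of 26, where 30.5% of all genes tested were higher, with a median of 0.39 against 0.05. Cd55, a surface protein that breaks up C3 convertases, rose from 123 to 280 counts in control libraries to 474 to 658 in treated ones (log2 fold change 1.63, adjusted p = 0.000221). The other 3 were rare: Vtn, which blocks the terminal complex, went from 0 to 2 counts to 12 to 21, Colec11, a lectin pathway collectin, from 1 count in each control library to 8 to 12, and C1s2, a C1s protease, from 0 to 8 counts to 11 to 29. C1qa, C1qb and C1qc, the subunits of C1q, did not pass, with log2 fold changes of -0.52, -0.81 and -0.75. C2, the classical pathway counterpart of Cfb and its chromosomal neighbour, was at 0.71 with an adjusted p of 0.170, and at 0.88 with an adjusted p of 0.0119 under the block.

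Of 24 other acute phase genes, 15 passed the filter, 6 were higher and 2 lower, where 21.7% of all genes tested were higher and 19.1% lower. The median log2 fold change was 0.22 against -0.01 over all genes. Most of those that rose came from counts near 0. Orm3 and Orm1, genes of orosomucoid, had 0 to 3 and 0 to 2 counts in control libraries and 9 to 54 and 16 to 36 in treated ones. Lrg1 went from 0 to 2 counts to 5 to 29, and Fgb, a fibrinogen chain, from 0 or 1 count to 4 to 23. The 2 that fell, named after their values were seen, were the metallothioneins Mt1 (log2 fold change -1.24, adjusted p = 0.000350) and Mt2 (-0.88, adjusted p = 0.00798). With the block 7 acute phase genes were higher and 2 lower, where 30.5% of all genes tested were higher and 27.8% lower.

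Among the inducers, the C/EBP genes did not move together. Cebpa rose from 4.11 to 12.3 CPM in the control libraries to 71.0 to 108 with doxorubicin (log2 fold change 3.57, SE 0.297, adjusted p = 4.45e-05). Cebpb, a factor known for the acute phase response, fell from 10.3 to 27.3 CPM to 2.51 to 3.08 (-2.87, SE 0.281, adjusted p = 8.44e-05). Neither pair of ranges overlapped. Cebpd, the third C/EBP gene of the list, did not pass (-0.54, adjusted p = 0.258), with ratios of 1.11, 1.14 and 1.07 in WT, KO 1 and KO 2 and 0.487 in Het, where it had been 2.15-fold above WT without treatment. Of 25 genes in this list, 5 were higher and 4 lower, where 21.7% of all genes tested were higher and 19.1% lower. The median was -0.59 against -0.01. Osmr, the oncostatin M receptor, fell (-1.52, adjusted p = 0.00237), and Il11 rose (1.44, adjusted p = 0.00129). Under the block 6 genes of this list were higher and 8 lower, where 30.5% of all genes tested were higher and 27.8% lower. Il6 went from 46 to 62 counts in WT, 1224 to 354 in Het, 43 to 71 in KO 1 and 34 to 64 in KO 2, so that it was lower with doxorubicin in the culture where it was high, at a ratio of 0.351 (0.311 to 0.396), and not in the others.

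Of 13 receptors for the members tested, 2 were higher and 0 lower, where 21.7% of all genes tested were higher and 19.1% lower. The 2 were Itgax, a chain of complement receptor 4 (log2 fold change 2.10, adjusted p = 0.00353), and Scarb1, which binds serum amyloid A (1.26, adjusted p = 0.00532). With the block 3 receptors were higher and 2 lower, where 30.5% of all genes were higher and 27.8% lower. The same shares apply to the interferon and p53 lists below. None of 17 interferon-stimulated genes passed without the block, and 2 were higher with it. Their summed CPM went from 128 to 465 in WT, 148 to 536 in KO 1 and 135 to 569 in KO 2, and from 2845 to 1757 in Het. Bst2 and Isg15, those with the highest mean CPM, had log2 fold changes of -0.68 and -0.59, and the block turned both signs, to 1.24 for Bst2 (adjusted p = 0.000537) and 3.05 for Isg15 (adjusted p = 0.0285). Bst2 and Irf7 were the 2 called higher. Within cultures Bst2 was 3.03-fold higher with doxorubicin in WT, 1.52-fold in Het, 2.24-fold in KO 1 and 3.26-fold in KO 2. Of 15 p53 target genes, 1 was higher (Pmaip1, at 2.21) and 1 lower (Phlda3, at -1.44), and with the block 2 were higher and 5 lower.

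Marker lists of cell types moved as follows with doxorubicin, where 21.7% of all genes tested were higher and 19.1% lower. Of 16 macrophage markers 1 was higher (Cd68, at 1.12) and 2 were lower (Csf1r at -1.12 and Cx3cr1 at -2.37), and their summed CPM went from 301 to 209 in WT, 943 to 1110 in Het, 218 to 188 in KO 1 and 162 to 130 in KO 2. Of 11 fibroblast markers 1 was higher (S100a4, at 0.77) and 1 lower (Pdgfrb, at -2.81). Of 6 epithelial markers 3 were higher (Esrp1, Krt5 and Epcam) and 1 lower (Krt18), and 1 of 5 neutrophil markers (Prtn3) and 1 of 3 hepatocyte markers (Fgb) were higher. Esrp1 had 0 CPM in all 5 control libraries and 4.24 to 16.0 in treated ones. The part of such cells in the higher C3, Cfb and Hp was not tested.

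No member passed the test of KO against WT. In control libraries, with 3 KO and 1 WT, 6 members were tested and 0 of 14470 genes passed (0%) by edgeR's quasi-likelihood test, with 10 genes at an unadjusted p under 0.05 and 0 genes called by DESeq2. Saa3 and Lcn2 had log2 fold changes of 8.25 (SE 6.00) and 8.29 (SE 5.58), each with an adjusted p of 1.00, the value of every member in this test. Leaving out KO 1 or KO 2 gave Saa3 estimates of 8.83 and 8.84. These rest on the single KO 3 library, with 5012 counts against 6 in KO 1, 0 in KO 2 and 5 in WT. Leaving out KO 3 left 4 members past the filter. With doxorubicin, 2 KO libraries and 1 WT library were compared, 30 of 15256 genes passed (0.197%, with 0.118% higher and 0.0787% lower), and 0 of the 4 members tested did: C3 0.33 (SE 0.241), C4b 0.65 (SE 0.704), Cfb -0.25 (SE 0.318) and Hp -0.11 (SE 0.536). These treated libraries did not hold Het or KO 3. The interaction of genotype and doxorubicin was called in 0 of 15905 genes (0%) and in 0 of 6 members, with 41 genes at an unadjusted p under 0.05 and 0 called by DESeq2, and C3 had an interaction estimate of -1.99 with an SE of 1.87. A p that misses the threshold does not show that genotypes act alike at these sample numbers.

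Levels were compared between genes per kilobase of exon, with the length taken as the union of all annotated exons of a gene. That length was 2606 bases for Saa3, 2623 for Lcn2, 5143 for C3 and 2825 for Cfb. It can exceed the length of the transcript made, by an amount that differs between genes, so the ranks depend on it. Cfb led in the untreated WT, KO 1 and KO 2 cultures, at 0.665, 0.795 and 0.809 CPM per kb, and C3 led in the same cultures with doxorubicin, at 3.04, 4.88 and 2.84 CPM per kb. Saa3 led in untreated Het and KO 3, at 37.9 and 85.9 CPM per kb, and in treated Het, at 54.7, where C3 came next at 15.8. Saa3 thus ranked first in the 3 libraries of Het and KO 3, and Cfb or C3 in the other 6. Lcn2 ranked behind Saa3 in untreated Het, at 6.98 CPM per kb.

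Genes whose log2 CPM followed each member most closely over the 9 libraries were listed by Pearson's r, as a description. For Saa3 they were Nts (0.994), Brf1 (0.992) and Gm5483 (0.991), and for Lcn2 Siglece (0.996), Tnnc1 (0.995) and Lst1 (0.990). Nts, which encodes neurotensin, was at 6.42 and 6.92 CPM in untreated Het and KO 3 and at 6.45 in treated Het, against 0 to 0.0989 elsewhere. Gm5483 was rare, at 0.397 to 0.491 CPM in the same libraries and 0 elsewhere. For C3 they were Bzrap1 (0.992), Dbi (0.991) and Hcn3 (0.989), for Cfb Tmem145 (0.993), Bpifb6 (0.990) and Elavl3 (0.990), for Hp Rpl38 (0.983), Cd302 (0.979) and Rab13 (0.977), and for C4b Polrmt (0.958), Pqlc2 (0.937) and Rhd (0.906). Bpifb6 and Elavl3 were at 0 CPM in the untreated WT, KO 1 and KO 2 libraries. Among the members, C3 and Cfb had r = 0.906, Saa3 and Lcn2 had r = 0.942 and Saa3 and Cfb had r = 0.299. The libraries share embryos and treatments and Het and KO 3 stand apart, so these values are no measure of independent agreement.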

How the data were processed

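RNA of Sall2 WT, Het and KO MEFs was sequenced by the authors on a NextSeq sequencer after ribosomal RNA depletion (TruSeq Stranded, Ribo-Zero Gold). Per the labels and methods, reads were aligned to mm10 with HISAT2 (version 2.1.0 in the submitters' processing notes) and counted per gene with HTSeq in union mode; the strand setting is not given in the sources used here. The deposited file holds raw counts, not normalized, in 10 columns, each the sum of 4 FASTQ parts listed as separate samples, 40 in all. The repeated column was dropped, and 0 columns had no sample.

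From the counts, TMM-scaled CPM (prior count 2 on the log2 scale), edgeR 4.0.16 quasi-likelihood tests with its filter on low counts, and Benjamini-Hochberg adjusted p (threshold 0.01) were computed in R 4.3.3. Genotype and treatment were terms of the treatment test. Same-numbered libraries come from the same embryo by their labels, and the deviations of control and treated libraries from their group means correlated over 15857 genes by 0.550 in WT, 0.735 in Het, 0.615 in KO 1 and 0.528 in KO 2. For each control with a treated partner, its own embryo gave the highest value. Different embryos reached 0.631, for the KO 3 control and treated Het, and 0.484, for the KO 2 control and treated WT. The size of such a value alone therefore does not identify an embryo. The embryo as a block, DESeq2 1.42.0, RLE and no scaling, no filter, RUVg with 1 factor, a threshold of 0.05 and leaving out single libraries were alternatives. Ratios of single libraries have exact conditional binomial 95% intervals for counting error. Gene models came from GENCODE vM21, promoters from RefSeq, and figures were drawn with matplotlib 3.10.9. The tests were checked on simulated counts.

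The members and the gene lists were chosen with earlier results of these data known. Named genes of a list were the 4 or fewer with the largest log2 fold change past the threshold, or the 3 with the highest mean CPM where none passed; for each member the 3 genes with the highest Pearson's r were named. A gene that this rule names is not reported here.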

Additional observations from a re-analysis of the deposited data

Results flagged for a closer look

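Within groups of 4 or 5 libraries, the most extreme library was set against the gap to its neighbour by Dixon's criterion, which chance meets in about 5% of groups of normally distributed values. The CPM values here were not transformed and some lie near 0, so that share need not hold. The share of all genes that met the criterion was not computed. The Het library was the extreme one among the doxorubicin libraries for Saa3 (143 CPM), Lcn2 (19.7 CPM), Hp (2.93 CPM) and C3 (81.0 CPM). Among the control libraries it was KO 3 for Hp (3.53 CPM), and Het for Saa2 (0.0409 CPM, a single count). With doxorubicin, Saa3 moved up in Het, by 0.53 in log2 CPM from 2416 to 2872 counts, and down in WT, by -0.48 from 5 to 3 counts; there was 1 pair of libraries on each side and the difference was not tested. In the same Het doxorubicin library the summed CPM of macrophage markers was 1110, against 130 to 209 in the other 3 treated libraries, and that of fibroblast markers 13122, against 32347 to 37457.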

How the results depend on the processing

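The treatment test called 6482 genes and 1 member. KO libraries alone gave 1911 genes and 0 members, and DESeq2, every gene with at least 1 count, and a threshold of 0.05 each gave 2 members. The embryo as a replicate block gave 9160 genes and 3 members, or 2 members when the repeated library was paired with KO 3; beside C3 and Hp it changed the call of no member. Leaving out single libraries, or cultures under the block, gave 4179 to 11312 genes and 0 to 3 members; the lowest count came without the KO 2 treated library and the highest under the block without the Het culture. The cause of these shifts was not tested.

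Hp was reversed in KO libraries alone (-0.47) and ranged from -0.032 to 1.11 when single libraries or cultures were left out. Lcn2 and Saa3 were reversed under the block, at 0.92 and 0.38, and ranged from -1.66 to 0.94 and from -7.89 to 0.51; without the KO 3 control they were at 0.94 and 0.37. Hp in KO against WT without doxorubicin ranged from -0.016 to 1.94.

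KO against WT without doxorubicin gave 164 genes and no member with RUVg, and 0 to 47 genes and 0 to 1 member, Saa3, when single KO libraries were left out. With doxorubicin it gave 30 genes, 5 with DESeq2, 5 with RLE scaling, 46 at a threshold of 0.05, 16 without scaling and 0 with all 9 libraries in 1 fit; leaving out a KO library there gave values without a test. The interaction gave 7 genes under the replicate block, and no member. Scaling without TMM moved the median log2 fold change of all genes by over 0.1 in KO against WT without doxorubicin (from 0.04 to 0.21) and in the interaction (from -0.01 to -0.16), and called no member in either. No scaling and the replicate block with single cultures left out were chosen after seeing the data. Saa1, Saa2, C4b and, outside Het and KO 3, Saa3 and Lcn2 lay at or near the floor of 3 counts, where these depths set the limit.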
